A study of Homo sapiens with 3 samples.

Results

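Claudins, cadherins and integrins are the membrane proteins by which epithelial cells hold on to each other and to the matrix beneath them. Their genes were chosen here by symbol, with earlier results of these data known. They were followed in the human embryonic stem cell line H9, an established line that was grown in pluripotent conditions. The choice gave 93 genes out of 18417 genes with a value. They fall into 3 families: a claudin group of 25 genes (claudins and the tight junction scaffolds TJP1 and TJP3), a cadherin group of 43 (cadherins, protocadherins, desmosomal cadherins, desmoplakin and catenins) and 25 integrins. A further 3 genes of these families, OCLN, CTNND1 and ITGA1, share a probe set with another symbol, and CDH13, CDH4 and CLDN25 have no probe set listed under their symbol. These genes were not analysed here.

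RNA came from 3 sources of untreated H9 cells: a polysome-bound fraction, which holds mRNAs that carry several ribosomes, a polysome-unbound fraction, which lacks them, and total RNA. With 1 array per source, no difference below has a replicate check and no p-value is given. All 3 share 1 cell line, and neither the separation of polysomes nor the use of feeder cells is described in the sources used here. RNA of both polysome fractions was purified with a different column kit from total RNA, so that in comparisons with total RNA the kit cannot be told apart from the source.

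Claudins are small multi-pass proteins that seal the space between epithelial cells at tight junctions, where TJP1 and TJP3 anchor them to actin. Cadherins bind cadherins on the neighbouring cell in the presence of calcium. Catenins tie the classical ones to actin, and desmoplakin ties the desmosomal ones to intermediate filaments. Integrins are pairs of an alpha and a beta chain that bind fibronectin, laminin, vitronectin or collagen. In human pluripotent cells the pairs of ITGB1 with ITGA6 or ITGA5 and of ITGB5 with ITGAV are known for attachment to laminin, fibronectin and vitronectin. All of these adhesion receptors are made on ribosomes at the endoplasmic reticulum.

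The first bases of an mRNA bear on how it joins polysomes. Transcripts that begin with a C and a run of pyrimidines, the terminal oligopyrimidine type of the ribosomal protein genes, can be held off polysomes. The stretches around the annotated transcript start are therefore shown for members toward both ends of their family in the comparison of bound with unbound RNA. Each has 30 bases before the start in lower case and the first 15 bases of the transcript in capitals, 5′ to 3′ on the gene's strand, from RefSeq in the build GRCh38.p14.
DSP (chr6:7541641-7541685, plus strand): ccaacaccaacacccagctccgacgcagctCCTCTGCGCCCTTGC
CTNNA1 (chr5:138753395-138753439, plus strand): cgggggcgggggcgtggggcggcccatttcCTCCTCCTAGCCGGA
DSG2 (chr18:31498147-31498191, plus strand): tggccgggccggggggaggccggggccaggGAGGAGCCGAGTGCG
PCDH18 (chr4:137532480-137532524, minus strand): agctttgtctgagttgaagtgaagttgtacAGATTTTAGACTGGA
CLDN6 (chr16:3018169-3018213, minus strand): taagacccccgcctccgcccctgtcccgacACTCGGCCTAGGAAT
CLDN11 (chr3:170418838-170418882, plus strand): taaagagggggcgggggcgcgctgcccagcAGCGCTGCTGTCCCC
CLDN15 (chr7:101237788-101237832, minus strand): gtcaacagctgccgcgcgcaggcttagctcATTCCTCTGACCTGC
ITGAV (chr2:186590026-186590070, plus strand): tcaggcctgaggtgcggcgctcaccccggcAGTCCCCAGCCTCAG
ITGB6 (chr2:160200258-160200302, minus strand): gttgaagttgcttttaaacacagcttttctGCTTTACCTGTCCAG

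A start sequence was matched for 67 of the 93 genes. A C at the annotated start followed by 4 pyrimidines was found in 6 of the 67 (8.96%), against 4.04% of all 27305 start sequences. Among the 39 that were also measured it was found in 2 (5.13%). The shares were 516 of 9598 measured protein-coding genes (5.38%) and 34 of 52 ribosomal protein genes (65.4%). The 2 measured members with such a start, DSP and CTNNA1, lay toward opposite ends of their family in the comparison of bound with unbound RNA given further on. Annotated starts can differ from those that H9 cells use, so a match describes the annotation.

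Values are log2 expression levels. On each array, the 95th percentile of 480 genes of tissue-restricted receptors, keratin-associated proteins and defensins served as the background level, which was 4.40 on the bound, 3.56 on the unbound and 3.76 on the total RNA array. A gene counts as measured when its mean over the 3 arrays exceeded 3.84, the same percentile of that mean. Of the 93 genes 49 were measured, 13 of 25 in the claudin group, 23 of 43 in the cadherin group and 13 of 25 integrins. DSC3 (mean 3.73), CDH20, CTNNA3 and CLDN9 (3.75) lay just under the line, and CLDN23 (3.90) and PCDH8 (4.001) just above it. Probe sets differ in brightness for reasons other than the amount of RNA, so levels are compared between arrays for 1 gene, and not between genes.

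The unmeasured members include genes known from other tissues. Of 44 genes under the line, 43 were below background on all 3 arrays, and DSC3, a desmocollin of stratified epithelium, exceeded it in total RNA (3.99). The unmeasured integrins reached at most 3.73 in total RNA. They included ITGAL, ITGAM, ITGAX and ITGB2, the integrins of white blood cells, with ITGB2 at 2.93 in total RNA, and the platelet chains ITGA2B and ITGB3. ITGAE, the partner of ITGB7, was at 3.62 on the bound, 3.21 on the unbound and 3.25 on the total RNA array, below background on each. Among cadherins, CDH5 of blood vessels (3.22 in total RNA) and CDH17 of gut and liver (3.17) were unmeasured, as were CLDN5 and CLDN18 in the claudin group.

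Some genes that lie side by side differed in whether they were measured. In the RefSeq order of protein-coding genes, 19 pairs of neighbours were both members. In 3 of these pairs both genes were measured, in 8 pairs 1 gene was, and in 8 pairs neither. The desmosomal cadherins lie in 1 row on the chromosome, and of the 7 genes DSC2 and DSG2, the broadly expressed ones, were measured while the 5 skin-associated genes were not. CLDN6 was at 10.14 in total RNA, and its neighbour CLDN9 at 3.71 was below background there. CLDN3 and CLDN4, another pair of neighbours, were both measured, and so were CDH8 and CDH11.

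**Figure D1:**
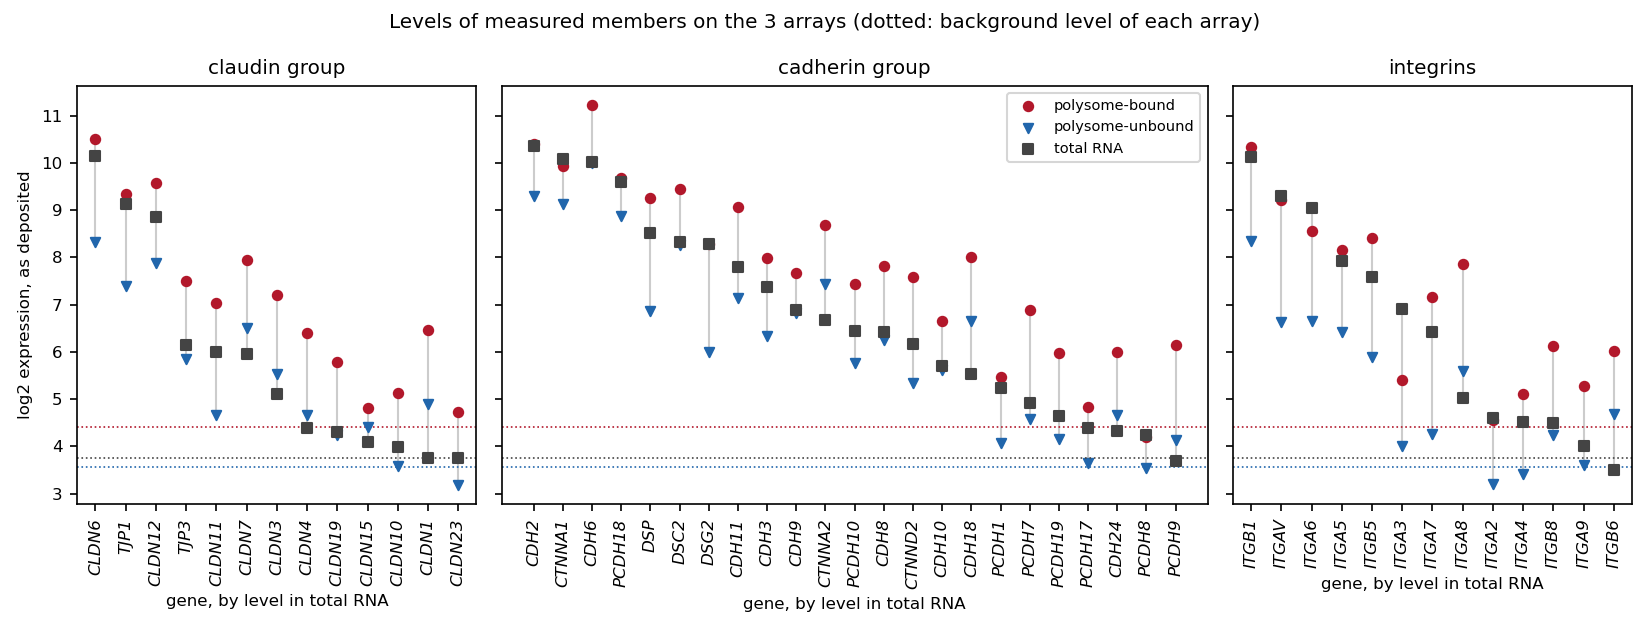
Log2 expression as deposited (vertical axis) of the 49 measured genes on the bound, unbound and total RNA arrays, 1 point per array, in 3 panels by family and ordered by the total RNA value; dotted lines mark the background level of each array. The bound value exceeds the unbound value for all 49 genes, and CLDN23, ITGB6 and PCDH9 lie below background in total RNA.

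Setting bound against unbound RNA asks which of these transcripts polysomes had engaged. As deposited, all 49 measured genes were higher on the bound array, by 0.39 to 2.90 on the log2 scale. Of these, 44 were at least 2-fold higher against 61.4% of all measured genes, and 0 were 2-fold lower against 1.56%. PCDH8 was below background on both arrays, so its direction is not shown, and ITGA2, counted among the 44, is bounded at 1.99-fold. The bound array was also brighter over all 12057 measured genes, with a median 1.26 over the unbound one. The relative difference, used from here on unless stated, is the log2 difference minus this offset, and the corresponding offsets are 1.03 for bound and -0.23 for unbound against total RNA. On this scale integrins lay furthest toward bound RNA, with a family median of 0.62, followed by the claudin group at 0.38 and the cadherin group at 0.09, against -0.07 over all measured genes. All 13 measured integrins, 12 of 13 claudin group genes and 13 of 23 cadherin group genes had values above 0, where 46.2% of all measured genes lay. ITGA2 and CLDN23 were below background in unbound RNA, and with the background level in place of the unbound value their relative differences are bounded at -0.27 and -0.09, so that 12 integrins and 11 claudin group genes are shown to lie above 0. Fibroblast markers had a median of 0.50 in the same comparison, with 3 of 9 at 2-fold, and pluripotency genes one of 0.02. The part of fibroblast RNA in the family medians was not tested. At the 2-fold line, a relative difference of 1, 7 of the 49 genes lay toward bound RNA against 6.36% of all measured genes, and 0 were lower against 9.91%.

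The order of the 3 families was the same under each scaling and filter tried, but some of these could not change it. The values as deposited, with or without a constant subtracted from the bound array, move all genes alike. Each member has 1 probe set, so the probe set rules left the gaps between families the same. The ranges that follow come from the other alternatives. The integrin median exceeded the cadherin group median by 0.54, with 0.37 to 0.77 under the alternatives, and the claudin group median by 0.24, with 0.20 to 0.42. The claudin group exceeded the cadherin group by 0.30, with 0.17 to 0.35. These differences are between medians of genes on 1 pair of arrays. With no level filter the family medians were 0.16 for integrins, -0.09 for the claudin group and -0.25 for the cadherin group. The median over all genes was then -0.24. The sign of the last 2 families thus depends on leaving out genes at background. Set against all genes, the claudin group still lay toward bound RNA and the cadherin group lay near the median.

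**Figure D2:**
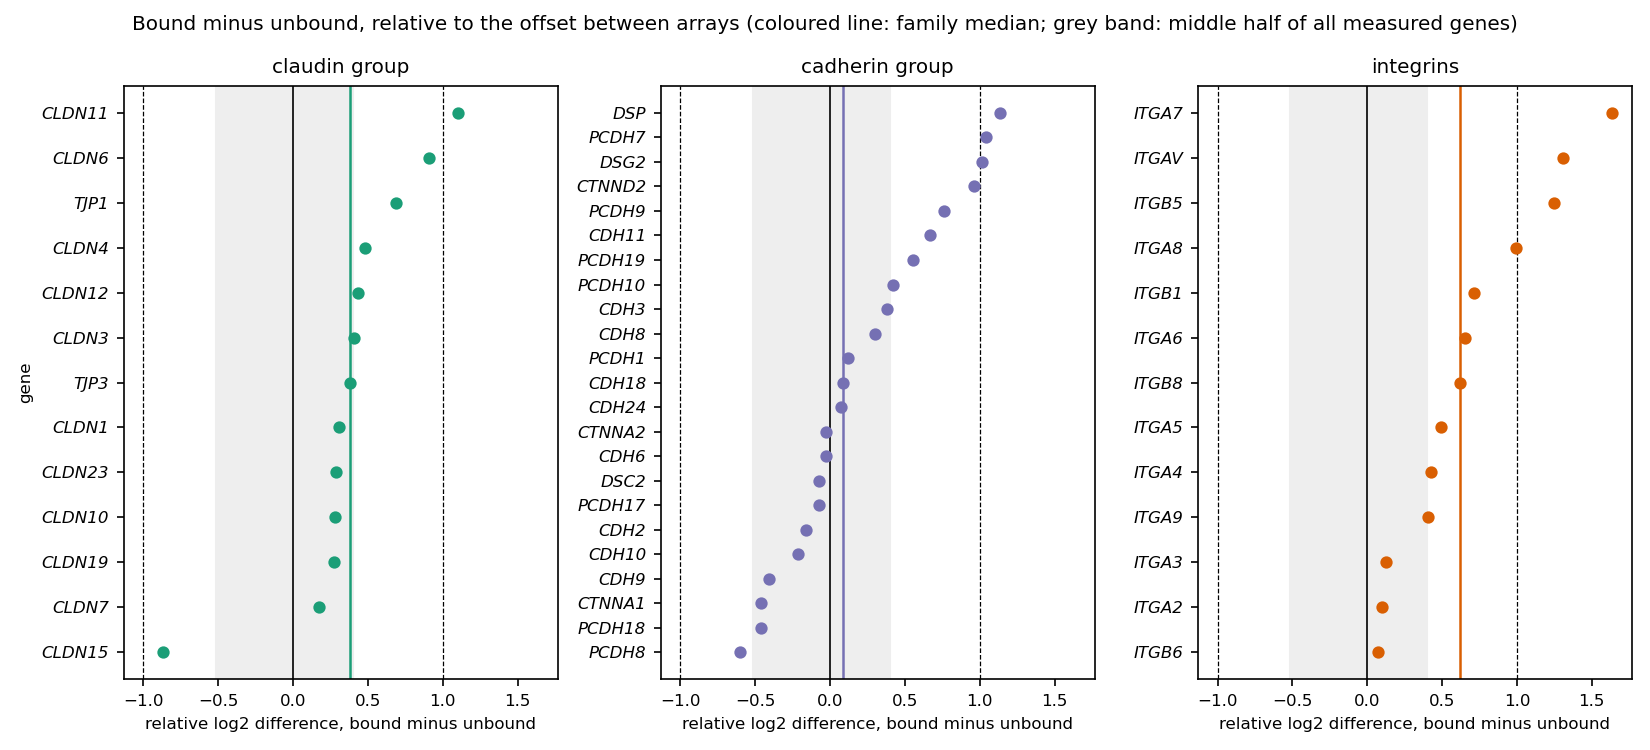
Relative log2 difference of bound minus unbound RNA (horizontal axis) for each measured gene (vertical axis), in 3 panels by family; the coloured line is the family median, the grey band the middle 50% of all measured genes, and dashed lines mark 2-fold. Points are plotted at the deposited values also where an array was below background (ITGA2, ITGA4, CLDN23 and PCDH8). The integrins run from 0.07 (ITGB6) to 1.64 (ITGA7), and DSP is highest in the cadherin group at 1.14.

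Among integrin alpha chains, ITGA7, a laminin receptor chain known from muscle, was at 7.16 in bound, 4.26 in unbound and 6.42 in total RNA. Its bound and total values were both well over the unbound one, and the relative difference of 1.64, or 3.11-fold, was the largest of the 49 genes. ITGAV, the alpha chain of the vitronectin receptors, was at 9.21 in bound, 6.64 in unbound and 9.30 in total RNA, a relative difference of 1.31. Its main beta partner in vitronectin binding, ITGB5, was at 8.40, 5.89 and 7.59, a relative difference of 1.25. Both chains of this receptor were thus more than 2-fold to the bound side. ITGA8, which pairs with ITGB1, was at 7.85 in bound, 5.59 in unbound and 5.02 in total RNA, with a relative difference of 0.99 that is just under the line.

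ITGB1, the beta chain shared by most matrix receptors, was at 10.33 in bound, 8.35 in unbound and 10.13 in total RNA. Its relative difference of 0.72 and that of its laminin-binding partner ITGA6 (0.65) lay close together and short of 2-fold. ITGA6 was at 8.57 in bound, 6.65 in unbound and 9.05 in total RNA. ITGA5, the fibronectin receptor chain, was at 8.16, 6.41 and 7.92, a relative difference of 0.49. ITGB8, an activator of latent TGF-beta together with ITGAV, had 0.62. Of the integrins above background in both polysome fractions, those nearest to 0 were ITGA3 (0.12) and ITGB6 (0.07), an epithelial partner of ITGAV. ITGA9 had 0.41, with an unbound value of 3.60 close to background. ITGA2, a collagen receptor chain, and ITGA4 were below background in unbound RNA, and as deposited their bound values were higher by at least 1.99-fold and at least 2.92-fold.

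Within the claudin group, CLDN11, known from myelin and testis, was at 7.03 in bound, 4.66 in unbound and 6.003 in total RNA, and its relative difference of 1.10 passed the 2-fold line. CLDN6, a claudin typical of pluripotent and early embryonic epithelium, was at 10.50 in bound, 8.33 in unbound and 10.14 in total RNA. As deposited its total RNA value lay near that of bound RNA. The relative difference of CLDN6 was 0.91 for bound minus unbound and -0.67 for bound minus total. TJP1, the ZO-1 scaffold, had 0.69 from values of 9.34, 7.39 and 9.13, and CLDN4 had 0.48. CLDN12, a claudin that lacks the usual binding site for such scaffolds, had 0.44 and the scaffold TJP3 had 0.38.

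Most other claudins lay in a narrow range. CLDN3, CLDN1, CLDN10, CLDN19 and CLDN7 had relative differences from 0.41 (CLDN3) to 0.17 (CLDN7). CLDN10 was at 5.14 in bound, 3.60 in unbound and 3.996 in total RNA, close to background on the last 2 arrays. CLDN23 was below background in unbound RNA, and its bound value as deposited was at least 2.26-fold higher. CLDN15, which forms cation pores in gut epithelium, stood apart from the other 12 genes of its group with -0.87. It was at 4.81 in bound, 4.42 in unbound and 4.09 in total RNA. As deposited its bound value exceeded the unbound one by the least of the 49 genes, and its relative difference was the lowest of them.

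In the cadherin group, desmoplakin and a desmosomal cadherin lay to the bound side and most classical cadherins nearer to 0. Desmoplakin, DSP, was at 9.26 in bound, 6.87 in unbound and 8.52 in total RNA, a relative difference of 1.14. The desmosomal cadherin DSG2 was at 8.28 in bound, 6.01 in unbound and 8.29 in total RNA, a relative difference of 1.01. DSC2, which pairs with DSG2 in desmosomes, was at 9.45, 8.26 and 8.32. Its unbound and total values were nearly equal as deposited, and its relative difference for bound minus unbound was -0.07.

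Classical and related cadherins mostly stayed close to the other genes of the arrays. The 9 measured ones had relative differences from -0.41 (CDH9) to 0.66 (CDH11), a mesenchymal cadherin, with a median of 0.07, and 0 of the 9 were 2-fold apart in either direction. CDH2, or N-cadherin, was at 10.41 in bound, 9.31 in unbound and 10.35 in total RNA, a relative difference of -0.16. CDH3, or P-cadherin, was at 7.98, 6.34 and 7.37, a relative difference of 0.38. CDH6, known from kidney and neural crest, had -0.03, CDH8 0.30 and CDH10 -0.21.

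Protocadherins and catenins spread more widely. PCDH7 was at 6.88 in bound, 4.58 in unbound and 4.92 in total RNA, and at 1.04 it was the 1 protocadherin past the 2-fold line. PCDH9 (0.76), PCDH19 (0.55) and PCDH10 (0.42) followed. PCDH18 was at 9.68 in bound, 8.88 in unbound and 9.58 in total RNA, and lay on the other side of 0 with -0.46. PCDH8 was below background in both polysome fractions, so that no difference between them is given. Among catenins, CTNND2, a delta catenin of neurons, had 0.96. The alpha catenins CTNNA2 (-0.03) and CTNNA1 (-0.46), the broadly expressed link to actin, were lower. CTNNA1 was at 9.94 in bound, 9.14 in unbound and 10.07 in total RNA, so that its 3 values as deposited lay within 1 log2 unit.

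The families differ in the length of their genes. The median genomic span of the measured genes was 7.14 kb in the claudin group, 135 kb in the cadherin group and 86.0 kb for integrins, against 32.2 kb over 11489 measured protein-coding genes. Over those genes, the rank correlation of span with the relative difference was 0.21, and the median relative difference went from -0.29 in the shortest 25% of genes (up to 12.8 kb) to 0.10 in the longest 25%. Of the claudin group, 8 measured genes had spans within that shortest range, with relative differences from -0.87 to 0.91 and a median of 0.35. Over the 49 members the rank correlation was 0.06. These are descriptions across genes that share the same arrays, and exons and introns were not told apart.

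The total RNA array showed which markers the cells carried. Of 12 pluripotency genes 9 were measured, among them LIN28A at 11.10 and SOX2 at 9.50, while LEFTY1, NODAL and GDF3 were below background on all 3 arrays. All 9 fibroblast markers were measured, with 8 above background on each array. Their levels as deposited, summed on the linear scale and returned to log2, were 11.42 in bound, 9.34 in unbound and 11.42 in total RNA. The list of 8 trophoblast and amnion genes had 7 above background in each polysome fraction and 5 in total RNA. The placental hormone gene CGA was below background throughout. The levels of that list, summed in the same way, were 10.45 in bound, 9.46 in unbound and 8.48 in total RNA. Fewer cells of a type and less RNA per cell cannot be told apart on these arrays.

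Against total RNA, bound RNA had lower relative values for integrins and values near 0 for the other families. The medians were -0.45 for integrins, -0.04 for the cadherin group and 0.11 for the claudin group, against -0.14 over all measured genes. Among integrins the 9 alpha chains had a median of -0.78, with 7 below 0. The 4 beta chains had one of 0.19, with 2 below 0. Fibroblast markers had a median of -0.81 and pluripotency genes of -0.76 in the same comparison. Both lay further below 0 than the median of all measured integrins, and their part in the integrin values was not tested. As deposited, the integrin median was 0.58, so its direction depends on the scaling. At 2-fold, 6 of the 49 genes exceeded total RNA against 2.66% of all measured genes, and 7 were lower against 6.43%. The split was 23 higher (40.1% of all measured genes) and 1 lower (0.572%) as deposited, 8 (3.24%) and 2 (3.41%) after quantile normalization, and 7 (3.23%) and 2 (3.68%) after removal of the trend with level. The 2 lower genes under the last pair of scalings are a share of the 49 near that of all measured genes.

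The 6 genes on the higher side were ITGA8, CLDN1, ITGB6, CDH18, PCDH9 and CLDN3. ITGA8 had a relative difference of 1.80 and CLDN1, a claudin of skin and other barriers, 1.67. CLDN1 was at 6.47 in bound, 4.90 in unbound and 3.76 in total RNA, where it was at background. ITGB6 was at 6.02, 4.69 and 3.49, and CDH18 at 8.01, 6.66 and 5.53. In all 6 genes the total RNA value as deposited was the lowest of the 3. CDH18 had a relative difference of 1.45 and CLDN3 of 1.06, with CLDN4 (0.97) and CLDN7 (0.96) under the line. ITGB6 and PCDH9, both below background in total RNA, had bound values as deposited that were at least 4.79-fold and at least 5.24-fold higher. The trophoblast and amnion markers had a median relative difference of 0.93 in the same comparison, and their part in these values was not tested.

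On the lower side, ITGA3, an alpha chain for laminin, was at 5.40 in bound, 4.01 in unbound and 6.91 in total RNA, a relative difference of -2.55. It was the 1 gene of the 49 that was also 2-fold lower in bound than in total RNA as deposited. ITGA6 (-1.52), CTNNA1 (-1.17), ITGAV (-1.12), ITGA2 (-1.07) and DSG2 (-1.03) were 2-fold lower after centring. As deposited these 5 were also lower than total RNA, with ITGA6 furthest at -0.49 and DSG2 at -0.004. The seventh, PCDH8, was below background in bound RNA, where its relative difference is at most -0.88, so that 6 genes are shown to pass the line. Of the 7, ITGA3 and ITGA6 were 2-fold lower under quantile normalization and after removal of the trend as well. TJP1 (-0.82) and CLDN6 (-0.67) were lowest in the claudin group.

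**Figure D3:**
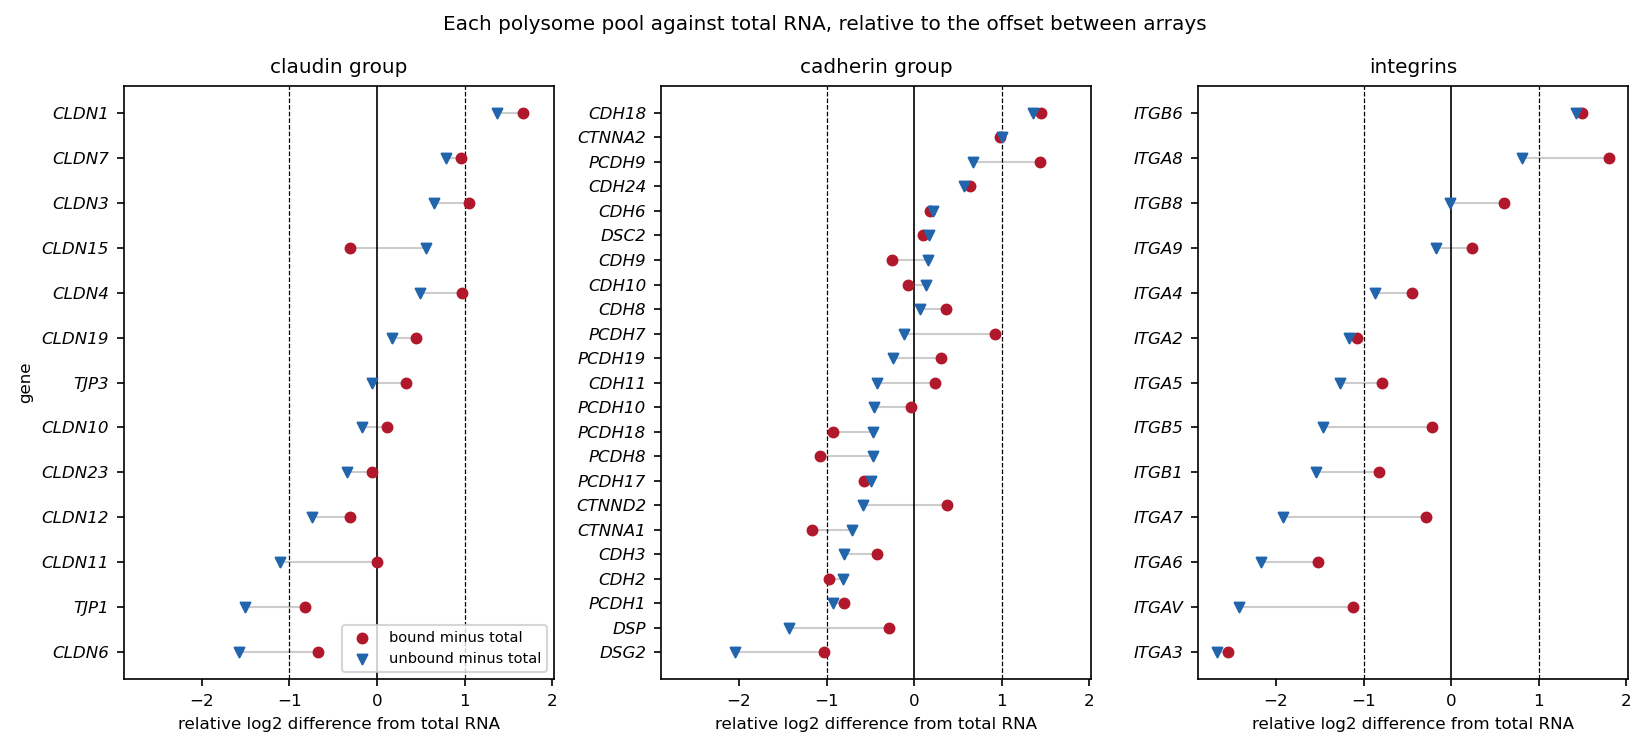
Relative log2 differences from total RNA (horizontal axis) of bound RNA (circles) and unbound RNA (triangles) for each measured gene (vertical axis), in 3 panels by family, with dashed lines at 2-fold; both differences share the total RNA array. Of the 13 integrins 8 have unbound values past the lower 2-fold line, among them ITGA2 at background, with ITGA3 lowest at -2.67.

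Against total RNA, unbound RNA was lower for most integrins. Their median was -1.27, compared with -0.42 for the cadherin group and -0.05 for the claudin group, and -0.07 over all measured genes. In unbound RNA 8 of the 13 integrins were past the lower 2-fold line and 1, ITGB6, was past the upper one. ITGA2 was below background in unbound RNA and its relative difference is at most -0.80, so that 7 integrins are shown to pass the lower line. The corresponding counts were 3 lower and 1 higher of 13 in the claudin group, and 2 and 2 of 23 in the cadherin group. Over the 49 genes 13 were lower, against 10.0% of all measured genes. The 4 that were higher (8.16%) are a share near the 8.08% of all measured genes. In the cadherin group 8.70% were lower and 8.70% higher, also near the shares of all measured genes. With no level filter the medians were -0.28 for integrins, -0.25 for the cadherin group and -0.19 for the claudin group. These take in the unmeasured genes, 12 of 25 integrins, 20 of 43 cadherin group genes and 12 of 25 claudin group genes, nearly all at background. The gap between family medians thus holds for measured genes and not for all members. Without the filter 14 genes were 2-fold lower. Under the other alternatives the integrin median lay between -1.20 and -1.65. Fibroblast markers had a median of -1.87 in the same comparison, and their part in the integrin values was not tested.

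The integrins lower in unbound RNA included ITGA3 (-2.67), ITGAV (-2.42), ITGA6 (-2.17), ITGA7 (-1.92), ITGB1 (-1.54), ITGB5 (-1.47) and ITGA5 (-1.27). The eighth, ITGA2, was below background in unbound RNA and at least 2.05-fold lower there as deposited. In the cadherin group the lower genes were both desmosomal, DSG2 with -2.05 and DSP with -1.42. In the claudin group they were CLDN6 (-1.58), TJP1 (-1.51) and CLDN11 (-1.11). The genes higher in unbound RNA were CLDN1 (1.37), CDH18 (1.36) and CTNNA2 (1.01), an alpha catenin of neurons, besides ITGB6, at least 1.90-fold higher as deposited and by a relative difference of at least 1.16. CTNNA2 fell short of the line at 0.77 as deposited, 0.92 with no level filter, and 0.999 both with the mean of all probe sets and over genes with 1 probe set. CLDN7 was at 0.79 and ITGA8 at 0.80. The trophoblast and amnion markers had a median of 0.94 here, which stands beside the values of CLDN1, CLDN7 and ITGB6, and its part in them was not tested.

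Most partners of these proteins at the junctions had relative differences above 0 for bound minus unbound RNA. The partner list held 63 symbols for plaque proteins, nectins, scaffolds, focal adhesion proteins and giant cadherins. Of these 57 were on the arrays and 48 were measured. Their median relative difference was 0.42, with 33 of 48 above 0 against 46.2% of all measured genes, 10 past the 2-fold line toward bound RNA against 6.36%, and 0 past the opposite one against 9.91%. The other 15 had values below 0, among them TNS1, which was below background in both fractions, and 1 of the 33, PKP3, is bounded at -0.01 since it was below background in unbound RNA. CELSR2, a giant cadherin of planar polarity, had 1.47, and its relative CELSR3, which was below background in unbound RNA, had at least 1.11. At the other end were the focal adhesion protein ZYX (-0.55) and the polarity scaffold PALS1 (-0.54).

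Against total RNA, bound RNA held 1 of the 48 partners at 2-fold higher values, against 2.66% of all measured genes, and 7 at 2-fold lower ones, against 6.43%, with a median of -0.18. The higher gene was the kindlin FERMT1 (1.24), an activator of integrins, and the lowest were ACTN1 (-1.58) and VCL (-1.43), which link adhesion sites to actin. In unbound RNA 0 of 48 were higher than in total RNA, against 8.08%, and 17 were lower, against 10.0%, with a median of -0.63. Of the 17, DCHS1 and CELSR3 were below background in unbound RNA, at most -0.96 and at most -0.99, which leaves 15 shown to pass the line. The giant cadherin FAT4 (-2.21) and talin, TLN1 (-2.05), which activates integrins from inside the cell, were lowest. PATJ (0.67) and PKP2 (0.58) were highest.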

How the data were processed

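H9 RNA from 3 sources was measured on 1 Affymetrix array each. The authors deposited log2 expression values, made with Partek 6.5 and the RMA method per the submitters' processing notes. How the arrays were scaled to each other is unknown, since their distributions differ. All 33297 bound values end in the same last 2 decimals, and a constant of about 0.11 appears to have been added. Genome build and polysome separation are not given in the sources used here.

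Genes came from 19460 probe sets with 1 symbol in GEO's platform annotation. Probe sets with several symbols (1754) or none (12083) were not named. For 769 genes the brightest probe set was kept. Each member had 1 probe set and matched RefSeq (GRCh38.p14), used for span and neighbours. No protein table was used, so the planned protein length was replaced by span.

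Groups followed the sample type. With 1 array a group nothing was tested, precision is limited by the number of arrays, and 2-fold is a descriptive line. Where an array was at background, folds are lower bounds against its background level. The members, the lists and the naming rule were chosen with earlier results of these data known. The rule takes, per family, the 4 brightest in total RNA, the 4 highest and 4 lowest for bound minus unbound, the 2 highest and 2 lowest for the other comparisons, and a set of known genes. Members outside it were named after their values were seen. Alternatives were other filters, scalings, probe set rules, fold lines and family borders. The scripts were tested on simulated data. Trends were removed with statsmodels 0.14.6 (lowess span 0.3), other steps used pandas 2.3.3 and numpy 2.4.6 under Python 3.11.15, and figures matplotlib 3.10.9.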

Additional observations from a re-analysis of the deposited data

How the results depend on the processing

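No paired analysis was possible because each source has 1 array. Family medians that moved by less than 1.5-fold are not repeated here. As deposited, the medians for bound minus unbound were 1.65 (claudin group), 1.35 (cadherin group) and 1.89 (integrins), and 1.54, 1.24 and 1.78 with the constant subtracted, an alternative chosen after seeing the data. For bound minus total they were 1.14, 0.99 and 0.58, and 1.03, 0.88 and 0.47. The integrin median for unbound minus total was -0.28 with no level filter. For bound minus unbound, the 7 genes 2-fold higher became 44 as deposited, 42 with the constant subtracted, 11 after quantile normalization, 16 at 1.5-fold and 1 at 3-fold, and the 0 lower became 2 at 1.5-fold. For bound minus total, the 6 higher became 23, 22 with the constant subtracted, 12 at 1.5-fold and 2 at 3-fold. The 7 lower became 1 as deposited and 1 with the constant subtracted, 2 after quantile normalization, 2 after lowess, 14 at 1.5-fold and 1 at 3-fold. For unbound minus total, the 4 higher became 8 at 1.5-fold and 0 at 3-fold, and the 13 lower became 20 and 5. Of 93 members 47 were above background in total RNA, and 32 with the 99th percentile of background genes as the line. DSG2 in bound minus unbound fell short of 2-fold at 0.97 after lowess and at 0.99 over genes above background on all 3 arrays. Restricting the fits to genes above background on all 3 arrays, also chosen after seeing the data, left 43 members with medians of 0.66 (integrins), 0.37 and 0.06 for bound minus unbound. Dim arrays limit 6 measured members that were below background on at least 1 array.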
